A study of Mus musculus with 2 samples.

Results

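The H19 and Igf2 locus of mouse chromosome 7 was described by its H3K4me3 peaks in prospermatogonia, which are fetal male germ cells. Its members were the peaks that overlapped, by at least 1 bp, the bodies of H19 and Igf2, the interval between these genes, or 10 kb beyond either gene. In mm10 that is the stretch chr7:142565530-142676816, 111287 bp in all, and it held 9 of the 135064 peaks in the list. The study mapped H3K4me3 by CUT&RUN, in which an antibody guides a nuclease to chromatin and the released DNA is sequenced, from 130000 cells sorted at E17.5 on an Oct-GFP reporter, named for Oct4 (Pou5f1), a factor active in germ cells. There was 1 library with the H3K4me3 antibody and 1 with rabbit IgG, from the same kind of cells, and the labels name no other genotype or treatment. The IgG library was not analysed here. There were no replicates, so no test between groups was made, and intervals cover counting error only.

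H19 encodes a long noncoding RNA and Igf2 a fetal growth factor. In somatic cells H19 is expressed from the maternal chromosome and Igf2 from the paternal one. The control region between them, a short way upstream of H19, is methylated on the paternal chromosome: unmethylated copies bind CTCF, which insulates Igf2 from enhancers that lie beyond H19. This methylation is laid down in prospermatogonia, by DNMT3A with its cofactor DNMT3L, and DNMT3L binds the histone H3 tail only where lysine 4 is unmethylated. The series concerns the reprogramming of such control regions in the male germ line. The maternal and paternal copies are not told apart in these data, and DNA methylation was not measured here.

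Each peak of the list carries a fold enrichment at its summit, a ratio of the fragments stacked there to a local background. That background is read here as the fragment density in a 10 kb window centred on the summit, in the same library. The stacked fragments, or pileup, and the background were both recovered from the deposited values, and the fold is their ratio after 1 is added to each. The lowest background any peak can have is 2.11 fragments, or 134 fragments per 10 kb, the level that the peak caller assigned to the whole genome. Peaks within 1 kb of a RefSeq start had a median of 38 fragments over a background of 6.08. As a check of the labelled cell type, 8 of 10 germ cell markers had a peak within 1 kb of an annotated end, against 74.5% of all protein-coding genes. The interval of that share (Wilson, 49.0% to 94.3%) includes the share of all genes, so the count alone does not single out germ cells. Dppa4, Tex101 and Ddx4 were highest in fold, at 7.64, 7.60 and 7.21, with 35, 37 and 38 fragments. Nanos2 and Nanos3, which encode germ cell RNA-binding proteins, had no peak there. The count was 5 of 7 for Sertoli markers, 2 of 6 for Leydig markers and 3 of 7 for endothelial and blood markers, and the median fold, with unmarked genes as 0, was 4.19 for germ cell, 3.33 for Sertoli and 0 for the other two lists, against 5.47 for all protein-coding genes. The Leydig genes Cyp17a1, Hsd3b1, Star and Insl3 held no peak, but Cyp11a1 had a fold of 9.90 with 51 fragments and Lhcgr 7.34 with 41. Clu led the Sertoli list at 8.32. Gata4 and Nr5a1 had no peak within 1 kb of an end, but 14 and 4 peaks in their bodies, with up to 45 and 46 fragments. The globin genes Hbb-bt and Hbb-bs had folds of 11.1 and 9.16, with 35 and 28 fragments over backgrounds of 2.24 and 2.16, near the lowest. The endothelial gene Tek had 8.63 with 39 fragments over 3.63. Cdh5, Pecam1, Ptprc and Csf1r had no peak within 1 kb of an end. In their bodies Ptprc had 6 peaks with up to 43 fragments, Pecam1 1 with 40, Cdh5 1 with 30, and Csf1r 0. Fetal somatic cells express H19 and Igf2 as well, and a part of such cells in the values below was not tested.

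The 9 peaks lay in 4 places. From the H19 side they were 3 peaks at the start of H19, 2 peaks inside the noncoding gene Gm33148 between H19 and Igf2, 3 peaks inside Igf2, and 1 peak upstream of Igf2 at an end of the antisense gene Igf2os. The 10 kb beyond the 3′ end of H19 held 0 peaks. The nearest peaks outside the locus lay 31739 bp beyond its edge on the H19 side, with 36 fragments and a fold of 7.62, and 38128 bp beyond its edge on the Igf2 side, with 31 fragments and a fold of 10.3. Peaks covered 3.75% of the locus, against 3.44% of the autosomes from their first to their last peak, and numbered 8.09 per 100 kb, against 5.10. The rate of the locus rests on 9 peaks, some of them neighbours with gaps of 99 to 279 bp. As the locus was drawn around genes and the autosomes were not, the higher rate is not a trait of this locus. The cover was uneven: 21.4% of the H19 body, 7.61% of the Igf2 body and 2.09% of the interval between them. Both fold and fragments are shown along the locus in the map of the peaks.

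**Figure D1:**
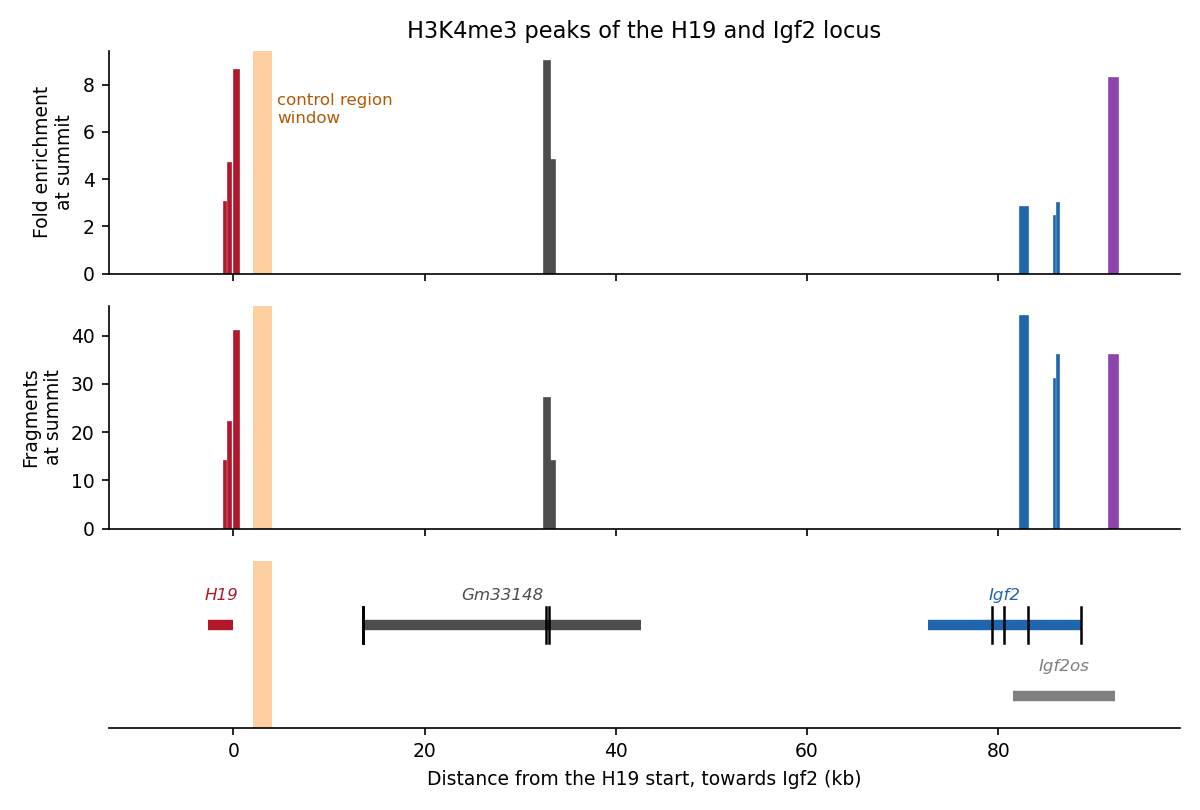
Peaks of the locus by their distance from the H19 start (kb, positive towards Igf2): fold enrichment at the summit above, fragments at the summit in the middle, and gene bodies below with RefSeq starts as black ticks. Each bar spans a peak, and the orange band is the control region window, from 2 to 4 kb upstream of H19, which held 0 peaks.

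H19 carried its strongest peak just outside the gene, on the side of the control region. Both genes are transcribed in the same direction, from Igf2 towards H19, so the start of H19 is its end at position 142578146. The peak at chr7:142578171-142578697 began 25 bp upstream of that start and ended 551 bp upstream, with its summit 221 bp upstream. It was 527 bp wide and had 41 fragments (95% exact Poisson interval 29.4 to 55.6) over a background of 3.87, which gives a fold of 8.62. Of all peaks in the list, its fold stood at percentile 83.8, its fragments at percentile 82.1 and its width at percentile 46.5. Peaks within 1 kb of a RefSeq start had medians of 38 fragments, 860 bp, a background of 6.08 and a fold of 5.45. Beside these the H19 peak was near the median in fragments, narrower, lower in background and higher in fold.

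Within the gene, 2 weaker peaks followed. The nearer, chr7:142577558-142577891, had its summit 466 bp inside H19, with 22 fragments (13.8 to 33.3) and a fold of 4.69. The farther, chr7:142577112-142577337, had its summit 936 bp inside, with 14 fragments (7.65 to 23.5) and a fold of 3.04. Pileup was thus lower with each peak from the start into the gene, and the interval of 41 fragments did not meet that of the 14, while that of the 22 overlapped both. Gaps of 220 and 279 bp separated the 3 peaks, which together spanned 1586 bp and covered 1087 bp of it. No peak lay in the 1 kb either side of the H19 3′ end. As background, 44.8% of long noncoding RNA genes had a peak within 1 kb of an annotated end.

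The innermost peak reached the hairpin of Mir675, the microRNA that is cut from the H19 transcript. It covered 36 of the 84 bp of the hairpin, and all 22 bp of the 5p product. This peak, with a −log10 q of 3.22, is 1 of the 2 in the locus lost when a −log10 q of at least 5 is asked for, and 0 bp of the hairpin then lie under a peak. Both mature products are shown because they lie at the inner limit of the H19 peaks, with the seed, bases 2 to 8, in capitals. The sequences are those of RefSeq on GRCm38.p6, the assembly of mm10, on the minus strand.
mmu-miR-675-5p, chr7:142577112-142577133: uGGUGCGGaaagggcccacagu
mmu-miR-675-3p, chr7:142577078-142577099: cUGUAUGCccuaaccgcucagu
The seeds differ, and the 3p product lay outside the peak. Mir483, a microRNA within Igf2, had 0 of its 73 bp under a peak.

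The control region held no peak. It was taken as the window from 2 to 4 kb upstream of the H19 start, chr7:142580146-142582146, a range set from common knowledge of the locus and not from the files. The H19 start peak ended 1448 bp short of it, and the next peak on the Igf2 side lay 28501 bp beyond it. These edges bound a stretch of 31950 bp without a peak. The background of the H19 start peak gives a measure of uncalled signal there, because its 10 kb window, about chr7:142573367-142583367, contains the control region. That window held 245 fragments, of which 77 were stacked at the summits of the 3 H19 peaks. The remaining 168 fragments, some of them in the flanks of those peaks, compare with the 134 per 10 kb of the whole genome. How many of the 168 fell in the control region itself cannot be told from the list, so a low level of H3K4me3 there was not detectable here. Of RefSeq starts moved by 100 kb, 12.7% had a peak within 1 kb on either side, a window of like size. Most such windows thus held no peak, and the lack of a peak does not set the control region apart. The autosomes held 5.10 peaks per 100 kb, and how often they hold a stretch of 31950 bp without a peak was not counted.

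**Figure D2:**
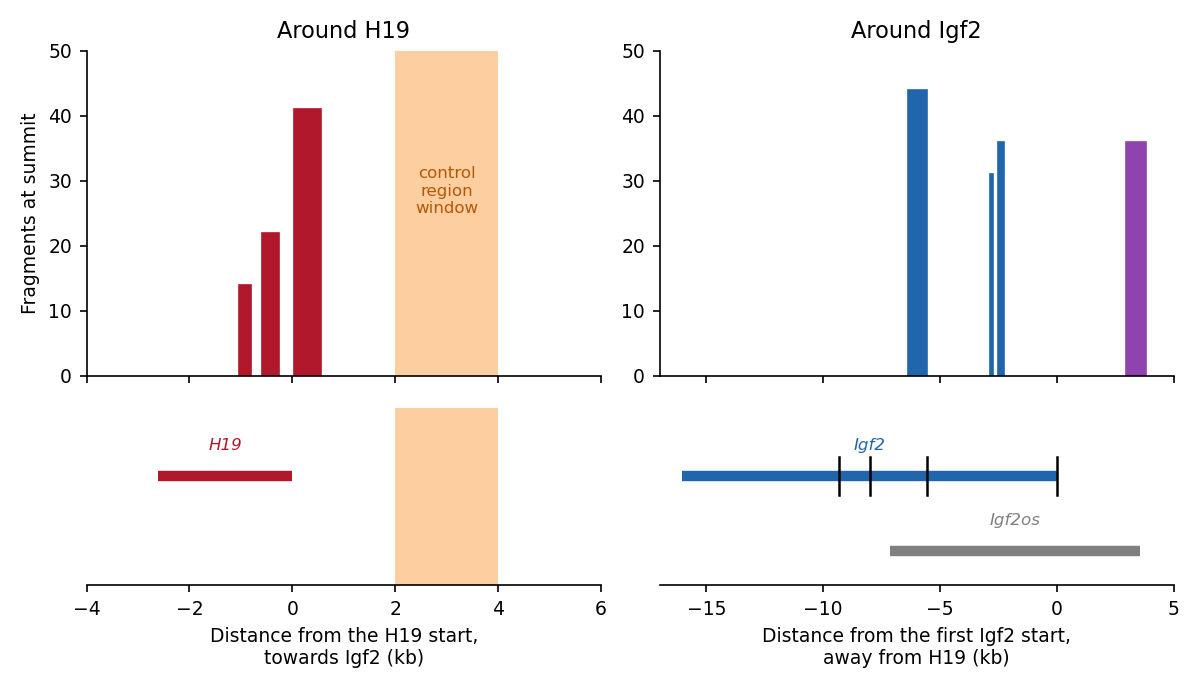
Fragments at the summit of each peak by distance (kb) from the H19 start, left, and from the first Igf2 start, right, with gene bodies and, for Igf2, its 4 RefSeq starts as black ticks. The H19 peaks stop short of the orange control region window, and of the 4 Igf2 starts the second alone has a peak at it.

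Between the genes, peaks apart from the one at the H19 start were found in 1 place. The lncRNA model Gm33148, a predicted gene of unknown role from 142591659 to 142620811, runs on the plus strand, opposite to H19 and Igf2. RefSeq lists 5 starts for it: 3 lie within 21 bp of each other at its 5′ end, and the other two are inside it, 19160 and 19500 bp downstream of the first. The peak chr7:142610648-142611313 covered both internal starts, with its summit 103 bp downstream of the fourth. It had 27 fragments (17.8 to 39.3) and a fold of 8.99, the highest fold in the locus, over a background at the floor of 2.11. After 99 bp followed a peak of 326 bp, chr7:142611413-142611738, with 14 fragments and a fold of 4.82 (2.78 to 7.87). The 3 starts at the 5′ end had no peak nearer than 12962 bp.

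The 250 bases upstream of both marked starts are shown to set their base composition beside that of the Igf2 starts, with each CpG dinucleotide in capitals. They come from RefSeq on GRCm38.p6, plus strand.
Gm33148 start 4, chr7:142610569-142610818: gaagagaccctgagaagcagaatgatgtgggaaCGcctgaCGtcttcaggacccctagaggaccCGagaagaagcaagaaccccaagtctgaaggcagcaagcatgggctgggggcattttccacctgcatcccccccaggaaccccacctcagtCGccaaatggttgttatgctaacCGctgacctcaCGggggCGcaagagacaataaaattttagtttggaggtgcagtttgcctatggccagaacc
Gm33148 start 5, chr7:142610909-142611158: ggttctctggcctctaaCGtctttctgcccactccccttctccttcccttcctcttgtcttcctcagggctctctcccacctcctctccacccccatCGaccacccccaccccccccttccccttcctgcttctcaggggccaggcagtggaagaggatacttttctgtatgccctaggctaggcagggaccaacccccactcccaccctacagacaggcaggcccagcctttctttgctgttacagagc
Neither is rich in CpG. The printed bases hold 7 and 2 CpG, and with the 50 bases after the start the counts are 8 and 2.

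Igf2 had no peak within 1 kb of either end of its annotated body, from 142650768 to 142666816, and 3 peaks inside. Its transcripts begin at 4 RefSeq starts, numbered here from the 5′ end. The first is at 142666816, and the others lie 5545, 8012 and 9320 bp downstream of it. In mouse the most upstream promoter is known for its use in placenta and the ones after it for use in fetal tissues. Of these 4 starts, 1 had a peak within 1 kb, the second. Among all 32851 RefSeq starts 59.7% had such a peak, against 12.7% after the starts were moved by 100 kb. Of the 139 protein-coding genes with 4 listed starts, 19.4% had a peak at 1 of them or none, so the pattern of Igf2 is a minority one that other genes share.

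The peak at the second start lay on the downstream side of it. It ran over chr7:142660450-142661273, 824 bp, and its upstream edge fell 2 bp from the start, position 142661271. It overlapped 52 bp of the 300 bp start window, and its summit was 581 bp downstream. At 44 fragments (32.0 to 59.1) it had the highest pileup in the locus, at percentile 87.9 of all peaks, but its fold of 2.81 (2.06 to 3.75) was at percentile 1.97. The other two Igf2 peaks, chr7:142663944-142664101 and chr7:142664302-142664541, lay between the first and the second start, with summits 2807 and 2370 bp downstream of the first. Their pileups were 31 (21.1 to 44.0) and 36 (25.2 to 49.8) fragments, and their folds 2.45 and 2.99. No RefSeq start of Igf2 lay within 1 kb of this pair. A methylated region upstream of the fetal promoters is known in Igf2, but no source used here gives its limits, and no overlap was tested.

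The bases upstream of the Igf2 starts are shown for their CpG content, in capitals. In the 300 bp windows the marked start, with 14 CpG, lay between the unmarked ones, with 24, 7 and 2. They are RefSeq sequences on GRCm38.p6, minus strand, each ending at the base before the start.
Igf2 start 1, chr7:142666817-142667066: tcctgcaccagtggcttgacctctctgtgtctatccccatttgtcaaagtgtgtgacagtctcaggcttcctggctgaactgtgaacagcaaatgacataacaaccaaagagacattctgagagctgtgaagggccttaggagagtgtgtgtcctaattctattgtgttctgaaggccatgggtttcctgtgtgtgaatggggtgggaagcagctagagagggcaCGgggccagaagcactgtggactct
Igf2 start 2, chr7:142661272-142661521: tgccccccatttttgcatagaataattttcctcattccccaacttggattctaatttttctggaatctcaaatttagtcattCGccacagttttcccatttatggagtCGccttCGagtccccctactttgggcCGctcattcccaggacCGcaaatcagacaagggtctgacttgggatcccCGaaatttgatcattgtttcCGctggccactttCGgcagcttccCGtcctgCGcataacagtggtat
Igf2 start 3, chr7:142658805-142659054: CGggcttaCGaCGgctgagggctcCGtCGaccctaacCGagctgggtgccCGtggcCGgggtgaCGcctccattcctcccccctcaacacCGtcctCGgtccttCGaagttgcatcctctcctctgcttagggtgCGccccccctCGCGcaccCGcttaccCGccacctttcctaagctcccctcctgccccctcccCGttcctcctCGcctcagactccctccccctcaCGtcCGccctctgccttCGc
Igf2 start 4, chr7:142657497-142657746: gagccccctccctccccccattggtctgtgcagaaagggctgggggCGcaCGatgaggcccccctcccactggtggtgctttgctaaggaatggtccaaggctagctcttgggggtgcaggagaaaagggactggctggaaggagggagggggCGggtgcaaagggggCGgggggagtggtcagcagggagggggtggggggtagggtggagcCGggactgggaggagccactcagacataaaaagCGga
The third holds 22 CpG in the bases shown, the second 10, the fourth 6 and the first 1. The GC box, searched as GGGCGG on both strands of the 300 bp windows, was found at the third start (1 match) and the fourth (2 matches), and in 35.7% of all start windows. The TATA box, searched as TATAAA on both strands, was found in none of the 4, and in 13.6% of all start windows.

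Of the Igf2 starts, the third stood out from other starts of like CpG number. In windows of 20 to 24 CpG, where the third Igf2 start belongs with 24, a peak lay within 1 kb in 98.8% of 2648 starts, and the third Igf2 start was among the 31 without one. Its nearest peak was 1646 bp away. The fourth start, with 7 CpG, had its nearest peak 2954 bp away, in a stratum of 6 to 9 CpG where 61.2% were marked. The second start had 14 CpG, and 89.4% of starts with 10 to 14 were marked. The first start had 2 CpG, and in its stratum of 0 to 2 the share was 14.4%. By the same measure, start 5 of Gm33148 was marked with 2 CpG, although the peaks it met are the same that start 4, with 8 CpG, met.

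**Figure D3:**
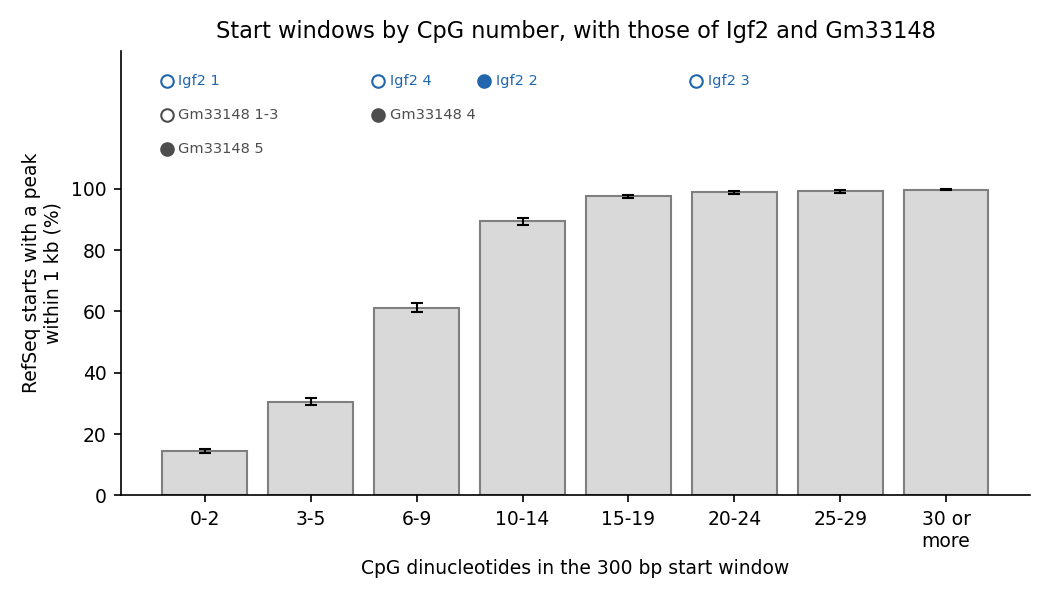
Share of RefSeq starts with a peak within 1 kb (%, bars, with 95% Wilson intervals) by the number of CpG in the 300 bp start window; circles above the bars place each start of Igf2 and Gm33148 in its stratum, filled where it had a peak. The third Igf2 start is open in a stratum where 98.8% of starts had a peak.

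The 3 Igf2 peaks stood in a stretch of dense fragments. They had local backgrounds of 15.01, 12.0 and 11.4 fragments, at percentiles 99.2, 97.7 and 97.1 of all peaks. Of peaks within 1 kb of a RefSeq start, 1.49% had a background as high as the first of these. Read as counts in a 10 kb window centred on the summit, they correspond to 950, 762 and 719 fragments. The H19 start peak had 245, and the whole-genome level was 134. The windows around the peaks at 142660690 and 142664009 overlap, and the stretch that the former holds alone is about chr7:142655690-142659009, which contains the third and the fourth start. The difference of 188 is the least number of fragments that this stretch of 3319 bp can hold, however few lay on the other side of the later window. That amounts to a mean pileup of at least 8.95 fragments, 4.23 times the whole-genome level, in a stretch without a peak. With the third peak in place of the second, the bound was 231 fragments over 3756 bp. Where in the stretch these fragments lay is not known, and the pileup and background at the third and the fourth start are not among the recovered values, so a part of the background in the lack of a peak there was not tested. These edges are approximate, and an IgG value was not used to check them.

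**Figure D4:**
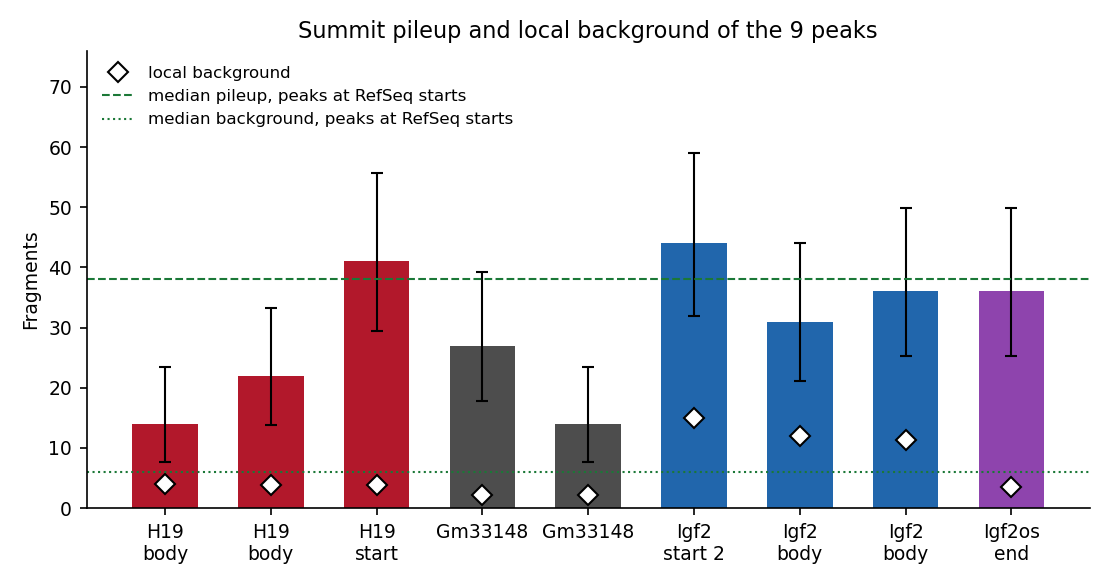
Fragments at the summit of the 9 peaks (bars, with 95% exact Poisson intervals) and the local background of each (diamonds), in order from H19 to Igf2os; green lines are the medians of peaks within 1 kb of a RefSeq start. Backgrounds of the 3 Igf2 peaks, 11.4 to 15.01 fragments, exceed all others in the locus.

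Upstream of Igf2, a single peak stood apart from this high background. It lay at chr7:142669767-142670643, 877 bp, and was the widest in the locus, with its summit 3223 bp upstream of the first Igf2 start. It had 36 fragments (25.2 to 49.8) over a background of 3.46, and a fold of 8.30 (5.88 to 11.4). The same number of fragments gave a fold of 2.99 at an Igf2 peak. The annotated end of Igf2os at 142670356 lay within it. Igf2os, a noncoding gene antisense to Igf2, extends from 142659680 to 142670356. Its strand is not listed, but a gene antisense to Igf2 would start at 142659680, 770 bp from the peak at the second Igf2 start. The end under the upstream peak would then not be its start.

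The levels at H19 and Igf2 were set beside those at other imprinted domains. Dlk1, Meg3, Rasgrf1 and Zdbf2 belong to domains with methylation on the paternal chromosome, and Kcnq1ot1, on the same chromosome as H19, has a control region methylated on the maternal one. Pileups were alike in size: 41 fragments at the H19 start, 44 at the second Igf2 start, and 34 to 50 at the marked starts of the other 5 genes, all with intervals that overlap. Folds differed more. At the H19 start the fold was 8.62 (6.25 to 11.6), and at those 5 genes it ran from 3.12 (2.19 to 4.33) at Meg3 to 5.67 (4.24 to 7.44) at Kcnq1ot1. The background was lowest at H19, 3.87 fragments, and highest at Igf2, 15.01, with the others between 6.21 and 10.2. As the fold is computed from pileup and background, it is no separate measure, and with 1 library no difference was tested.

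**Figure D5:**
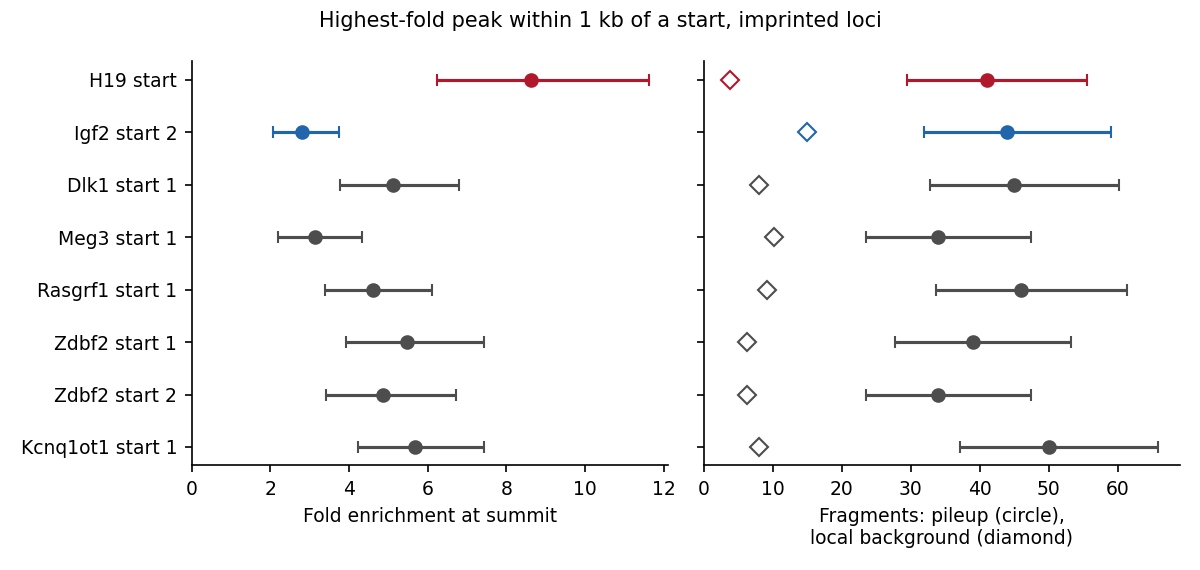
Fold (left) and fragments (right) of the peak of highest fold within 1 kb of each start, with 95% exact Poisson intervals; diamonds are local backgrounds. H19 and Igf2 lie at the opposite ends in fold, 8.62 and 2.81, with pileups of 41 and 44 fragments.

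Peaks within 1 kb of an annotated end were also counted for genes that act with Igf2. Of all protein-coding genes 74.5% met this rule, with a median fold of 5.47, unmarked genes counted as 0. The Wilson interval of each list below includes that share, so the counts do not set these genes apart. The IGF system signals through the receptors IGF1R and INSR, while IGF2R clears IGF2 and binding proteins hold the ligands in the extracellular space. Of 8 genes for ligands and receptors 6 were marked, with a median fold of 4.75, and Igf2 and the insulin gene Ins2 were not. By gene ends Ins1, the other insulin gene, was highest at 9.48 (6.45 to 13.5), ahead of the insulin receptor-related gene Insrr at 7.86, Igf2r at 5.97 and Insr at 5.51. Igf1 had 4.002 by gene ends and 7.99 with 35 fragments at its listed start. All 7 genes for IGF binding proteins were marked, a share that the Wilson interval sets at 64.6% or more. By gene ends Igfbp5 led at 7.83, with Igfbp7 at 7.18, Igfbp6 at 7.16 and Igfbp1 at 6.23. At listed starts Igfbp7 led at 7.18 and Igfbp5 was lowest at 3.10. The 3 genes for IGF2 mRNA binding proteins were marked at lower folds, 4.59 for Igf2bp2, 3.25 for Igf2bp1 and 2.61 for Igf2bp3. The order by fold was not that by fragments. Igf2bp2 had 55 fragments over a background of 11.2 and Igf2bp1 36 over 10.4. Ins1 had 29 over 2.16, Insrr 24 over 2.18 and Igfbp6 22 over 2.21, all near the lowest background. Igfbp7 was high in both, with 63 fragments over 7.92. Igf2bp3 had 40 fragments over a background of 14.7, close to the values at the second Igf2 start.

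Genes whose products bind such control regions, or add, protect or remove DNA methylation, were marked in 11 of 13 cases, with a median fold of 5.17. By gene ends Dnmt3l, the cofactor of de novo methylation, had the highest fold at 7.57 (5.18 to 10.7), with 30 fragments. Ctcfl, the germ line paralogue of Ctcf, followed at 7.11 with 58 fragments. The de novo methyltransferase gene Dnmt3b had 7.07 with 52 fragments. Zfp57, whose product keeps imprints after fertilisation, had 7.07 with 21 fragments over a background of 2.11. Dnmt1, which maintains methylation, and Dnmt3a were not marked at an end of the annotated body. At listed starts Zfp57 was highest at 8.03 and Tet3, which encodes an enzyme that oxidises methylated cytosine, had 7.86. Dnmt3a had a peak at 3 of 3 with up to 40 fragments, and Dnmt1 at 2 of 3 with up to 36 fragments. The Wilson interval of the 11 of 13, 57.8% to 95.7%, includes the share of all protein-coding genes.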

How the data were processed

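One H3K4me3 CUT&RUN library was analysed. The submitters' processing notes name the peak caller MACS2 2.1.0, the aligner Bowtie2 2.5.0, Trim Galore, deepTools 3.5.1, bedtools 2.27.1 and SAMtools 1.16.1, with the builds mm10 and sacCer3. Their settings are not recorded in these notes. The authors deposited 1 peak list with a fold enrichment (a ratio), −log10 p and −log10 q, and a score per peak. The deposited score repeats the −log10 q and was not used further.

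Pileup and background were recovered as whole-number solutions of the fold and the −log10 p under a Poisson upper tail. Of all peaks, 135054 were solved within 0.0001. All 93076 backgrounds above the lowest were within 0.05 steps of a whole number of steps, the step of 0.0158 fragments being the smallest peak width, 158 bp, over 10000 bp. This is how the background was read as a 10 kb window of the same library, although peak names carry the letters of an IgG control. The depth of the library is therefore known only through these values.

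Genes and starts were those of RefSeq on GRCm38.p6: 21887 protein-coding genes, 12727 long noncoding RNA genes and 32851 starts with their 300 bp windows, on 19 autosomes, X and Y. For H19, the end of its body towards Igf2 was used as the start. No genome was used, so CTCF motifs in the control region were not searched. Shares have Wilson intervals and pileups exact Poisson intervals, carried to the fold at a fixed background. Named were all peaks and genes of the locus, its nearest coding neighbours, 5 genes of other imprinted domains, and of each list of IGF2 signalling and imprint control up to 4 members of highest fold and all unmarked ones. Names at listed starts and among cell type markers were chosen after their values were seen. The members, lists, start windows and CpG strata were chosen with earlier results of these data known. On data simulated by the formula that the recovery inverts, all 18301 pileups were recovered. All 200 genes given a peak inside the 1 kb window, among 21887, were called. These runs check the code only, not whether the deposited values follow the formula. Values were computed with scipy 1.17.1, pandas 2.3.3 and numpy 2.4.6 in Python 3.11.15, and drawn with matplotlib 3.10.9.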

Additional observations from a re-analysis of the deposited data

How the results depend on the processing

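Alternatives covered peaks with a −log10 q of at least 5, summits in place of overlaps, windows of 500 and 2500 bp, a flank of 20 kb and a control region of 1 to 5 kb. Counts by listed starts and the hairpin overlap were added after the data were seen. The number of peaks in the locus was 7 with the stricter q, which drops the H19 peak that meets Mir675 and the Igf2 peak of 158 bp, and 9 otherwise, and the control region window held 0 bp of peak in each setting run. The H19 start fold was the same in each. Within 2500 bp, 1 of the 2 ends of Igf2 met a peak in place of 0, and 3 of its 4 listed starts in place of 1. With the stricter q, 0 bp of the Mir675 hairpin lay under a peak in place of 36. Of 29 alternatives, these 3 alone moved a count by over 1.5 times. Summits rest on 14 to 44 fragments, so pileups that differ by less than their intervals cannot be ordered. No paired analysis was possible because there was 1 library.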

Other observations

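The nearest protein-coding genes outside the locus differed from each other. Mrpl23, which encodes a mitochondrial ribosomal protein and lies 24783 bp beyond the edge on the H19 side, had 3 peaks, all within 1 kb of its 5′ end, with up to 36 fragments and a fold of up to 7.62. The insulin gene Ins2, 1840 bp beyond the edge on the Igf2 side, had 0 peaks in its body and 0 within 1 kb of either end.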
